A study of Mus musculus with 12 samples.

Results

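The 9 genes described here belong to the antigen receptors of B and T lymphocytes and their companion surface proteins: Cd79a, Cd79b, Ms4a1, Cd37, Cd3d, Cd3e, Cd3g, Cd2 and Btla. They are 9 of the 22552 genes in the deposited table, taken by symbol, and they had been picked because they were higher in both kinds of knockout muscle. Their muscle values therefore describe the choice and were not tested. The series holds 12 RNA sequencing samples in 7 groups of C57Bl/6 mice, and the table gives 1 FPKM value per gene and group. FPKM is a level in sequenced fragments, scaled to transcript length and to library size.

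The striated muscle groups were homozygous Lbr knockout (LBR_KO, 2 samples), homozygous Lmna knockout (LMNA_KO, 2 samples) and wild type (wt, 2 samples). The myoblast groups were homozygous Lbr knockout (2 samples), homozygous Lmna knockout (2 samples), wild type of the Lbr litter (1 sample) and wild type of the Lmna litter (1 sample). Lbr encodes the lamin B receptor, a protein of the inner nuclear membrane, and Lmna encodes lamins A and C of the nuclear lamina. Knockouts and wild types were offspring of heterozygous parents. The labels name neither the muscle, the age of the animals nor the deleted part of either gene, and they do not tie the wild-type muscle to a litter. A single column stands for both samples of a group, so no value below has a replicate error, no difference has a replicate check, and none was tested. NuGEN kits are named by sample number in the labels, and whether they differed between the compared groups was not worked out.

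In muscle, Lbr stood at 1.87 FPKM in the Lbr knockout and 11.8 FPKM in wild type, and Lmna at 22.6 FPKM in the Lmna knockout and 59.5 FPKM in wild type. In myoblasts, Lbr was at 7.71 FPKM in the Lbr knockout, against 16.1 FPKM in the wild type of its litter, and Lmna at 18.5 FPKM in the Lmna knockout, against 147 FPKM. The Lbr transcript was thus still detected in the myoblast column labelled Lbr knockout. All 10 muscle fibre markers were above 1 FPKM in the 3 muscle columns, the creatine kinase gene Ckm at 5120, 4488 and 4977 FPKM in Lbr-knockout, Lmna-knockout and wild-type muscle. The myoblast factor gene Myod1 was at 5.51, 2.09, 2.46 and 5.35 FPKM in Lbr-knockout, Lmna-knockout, Lbr-litter wild-type and Lmna-litter wild-type myoblasts, and at 16.4 to 18.1 FPKM in the muscle columns. Of 8 myoblast markers, 5 or 6 reached 1 FPKM in each myoblast column, while Myf5 and Pax7 were at most 0.441 and 0.273 FPKM there. The summed level of the 8 was 54.1 to 140 FPKM in the myoblast columns and 785 to 965 FPKM in the muscle columns. Des made up most of the muscle sum, at 731 to 909 FPKM. Vcam1 was higher in the myoblast columns, at 17.1 to 28.7 FPKM, against 3.27 to 4.32 FPKM in muscle. Chrna1 overlapped between the tissues, and Myod1, Myf5, Pax7, Cdh15, Itga7 and Des were lower in every myoblast column than in muscle. Total counts are unknown. For genes with a single transcript, the most frequent low product of FPKM and transcript length was assumed to be 1 fragment. On that basis, 1 FPKM of a 2 kb transcript was about 6.45 fragments in each knockout muscle column. In the wild-type muscle column it was about 8.33 fragments. That estimate depends on how samples were combined.

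B and T lymphocytes recognise antigen through receptors whose antigen-binding chains cannot signal on their own. The B cell receptor borrows the tails of the Cd79a and Cd79b proteins, and the T cell receptor those of the Cd3d, Cd3e and Cd3g proteins and of the zeta chain encoded by Cd247; the tails carry tyrosine motifs that are phosphorylated and recruit the kinases Syk or Zap70. Healthy skeletal muscle holds few lymphocytes, which enter from blood, whereas lymph nodes beside muscles are packed with them. The immunoglobulin and T cell receptor chains themselves were not analysed here.

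All 9 genes had a higher value in each knockout muscle column than in the wild-type column, as did 51.6% of 12054 genes; with quantile normalization, Cd3g in Lmna-knockout muscle lay just below wild type (-0.03). Both comparisons share that wild-type column. In bulk tissue, a different number of cells of a type and a different amount of RNA per cell cannot be told apart. A gene is said to have risen or fallen where log2(FPKM + 1) changed by 1 or more, that is 2-fold; the added 1 understates the change of low genes. In Lbr-knockout muscle 8 of the 9 rose, with a median log2 difference of 1.41, and in Lmna-knockout muscle 6 rose, with a median of 1.13. Over all genes the medians were 0.10 and 0.13, and 1.30% of 12080 genes rose in Lbr-knockout muscle and 1.93% of 12068 in Lmna-knockout muscle. In either direction 1.56% and 2.69% of genes passed 2-fold, the falls being 0.265% and 0.762%. The 6 genes that rose in Lmna-knockout muscle rose in both knockouts, as did 0.614% of all genes. Since the genes were picked on these contrasts, nothing is read from that comparison. All 9 met the minimum mean of 1 FPKM over the muscle columns, but 6 of them were below 1 FPKM in wild-type muscle and met it through the knockouts.

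**Figure D1:**
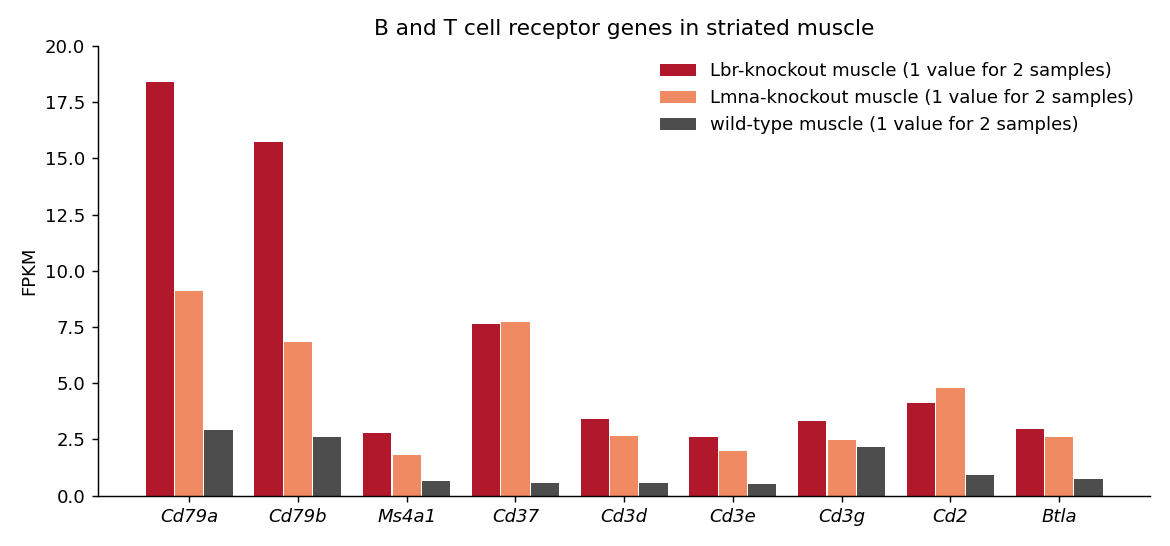
FPKM (vertical axis) of the 9 genes in Lbr-knockout, Lmna-knockout and wild-type striated muscle, each bar the single deposited value for 2 samples, with no error available. Cd79a and Cd79b reach 18.4 and 15.7 FPKM in Lbr-knockout muscle, and Cd3g differs least between the columns.

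Of the 9 genes, Cd79a, a signalling chain of the B cell receptor, had the highest level in all 3 muscle columns. Cd79a stood at 18.4 FPKM in Lbr-knockout muscle and 9.08 FPKM in Lmna-knockout muscle, against 2.93 FPKM in wild-type muscle. Cd79b, its partner in the heterodimer, stood at 15.7 and 6.84 FPKM in Lbr-knockout and Lmna-knockout muscle, against 2.59 FPKM in wild-type muscle. Both were high in Lbr-knockout muscle, intermediate in Lmna-knockout muscle and low in wild type. The log2 differences from wild type were 2.30 and 1.36 for Cd79a, and 2.22 and 1.13 for Cd79b, in Lbr-knockout and Lmna-knockout muscle. As plain ratios of FPKM, Cd79a was 6.29 and 3.10 times and Cd79b 6.07 and 2.64 times the wild-type value. The pair kept a similar proportion, Cd79a being 1.17, 1.33 and 1.13 times Cd79b in Lbr-knockout, Lmna-knockout and wild-type muscle. With the columns centred on their medians, the Lmna-knockout difference of Cd79b was 1.00, just under 2-fold, and with quantile normalization it was 0.98.

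Ms4a1 encodes CD20, a membrane protein of B cells that plasma cells lose. It was at 2.80 FPKM in Lbr-knockout muscle and 1.82 FPKM in Lmna-knockout muscle, against 0.672 FPKM in wild-type muscle. It rose in Lbr-knockout muscle (log2 difference 1.19), while the Lmna-knockout difference was 0.76 on the same scale and 2.71 times wild type as a ratio of FPKM. Its level was below that of Cd79a in all 3 columns. In the annotation consulted, a gene on the opposite strand, 4930526L06Rik, overlaps Ms4a1. Whether the libraries kept strand is not given in the labels, so reads of overlapping genes may not have been told apart.

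Cd37 encodes a tetraspanin, a membrane organiser that is abundant on mature B cells and present on other leukocytes. It had the largest difference of the 9 genes in both knockouts on this scale. Its values were 7.64 FPKM in Lbr-knockout muscle and 7.71 FPKM in Lmna-knockout muscle, against 0.584 FPKM in wild-type muscle. The knockout columns were alike and both far above wild type, with log2 differences of 2.45 and 2.46, or 13.1 and 13.2 times the wild-type FPKM. It ranked 5 of 12080 genes by size of rise in Lbr-knockout muscle and 7 of 12068 in Lmna-knockout muscle. The wild-type value rests on about 6 estimated fragments, so its ratio is imprecise. Cd37 and Tead2, on the opposite strand, overlap by 13 bases.

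The chains of the T cell receptor complex had lower levels. Cd3d stood at 3.43 FPKM in Lbr-knockout muscle and 2.67 FPKM in Lmna-knockout muscle, against 0.576 FPKM in wild-type muscle (log2 differences 1.49 and 1.22). Cd3e stood at 2.61 and 1.97 FPKM in Lbr-knockout and Lmna-knockout muscle, against 0.503 FPKM in wild-type muscle (1.26 and 0.98). Both were several times higher in the knockouts, although the Lmna-knockout difference of Cd3e missed 2-fold on this scale. Cd3g departed from them, at 3.31 and 2.49 FPKM in Lbr-knockout and Lmna-knockout muscle, against 2.16 FPKM in wild-type muscle. Its log2 differences were 0.45 and 0.14, and it did not reach 2-fold in either knockout, ranking 1195 and 5813 by size of difference. In the knockout columns the 3 genes lay close together, but in wild-type muscle Cd3g was 4.29 times Cd3e, against 1.27 and 1.26 times in Lbr-knockout and Lmna-knockout muscle. For Cd3d over Cd3e the ratios were 1.31 and 1.36 in the same knockouts and 1.15 in wild type. The wild-type values correspond to about 9 estimated fragments for Cd3g, 4 for Cd3d and 3 for Cd3e, so these ratios carry large counting error. Cd3e overlaps the annotated genes Gm48719 and Gm48720.

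Cd2 encodes an adhesion receptor of lymphocytes that binds CD48 in mice, and was grouped here with the T cell genes. It was at 4.12 FPKM in Lbr-knockout muscle and 4.77 FPKM in Lmna-knockout muscle, against 0.934 FPKM in wild-type muscle, log2 differences of 1.41 and 1.58. Cd2 was the highest of the 4 genes grouped as T cell genes in both knockouts, and Cd3g was the highest in wild type. Btla encodes an inhibitory receptor of B and T cells that binds the herpesvirus entry mediator, the product of Tnfrsf14, and recruits tyrosine phosphatases. It was at 2.94 and 2.60 FPKM in Lbr-knockout and Lmna-knockout muscle, against 0.741 FPKM in wild-type muscle, log2 differences of 1.18 and 1.05. With the columns centred on their medians the Lmna-knockout difference of Btla was 0.92. Over all 9 genes the estimated fragments ran from 11 to 86 in Lbr-knockout muscle, 8 to 63 in Lmna-knockout muscle and 3 to 18 in wild-type muscle.

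Promoter windows from 250 bases before to 50 bases after the transcript start (RefSeq, build GRCm38.p6) were matched by symbol for 6 of the 9 genes. Those of Cd79a (chr7:24897247-24897546, plus strand), Cd37 (chr7:45238790-45239089, minus strand), Cd3e (chr9:45009562-45009861, minus strand) and Btla (chr16:45224087-45224386, plus strand) are shown because these genes stand for the B cell receptor, the largest rise, the T cell receptor and the inhibitory receptor. Capitals mark the Ets core GGAAGT and the E-box CAGGTG, read on either strand.
Cd79a: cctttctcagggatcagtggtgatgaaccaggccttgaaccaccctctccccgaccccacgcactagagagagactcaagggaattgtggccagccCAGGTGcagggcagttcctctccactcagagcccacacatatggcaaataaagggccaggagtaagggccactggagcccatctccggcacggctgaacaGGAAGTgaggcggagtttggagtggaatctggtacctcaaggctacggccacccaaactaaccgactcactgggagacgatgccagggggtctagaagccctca
Cd37: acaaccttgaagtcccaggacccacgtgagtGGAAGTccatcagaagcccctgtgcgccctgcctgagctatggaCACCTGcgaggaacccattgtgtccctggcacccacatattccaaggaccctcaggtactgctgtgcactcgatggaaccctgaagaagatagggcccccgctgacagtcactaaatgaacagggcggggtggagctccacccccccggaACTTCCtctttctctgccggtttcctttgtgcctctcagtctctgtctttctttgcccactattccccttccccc
Cd3e: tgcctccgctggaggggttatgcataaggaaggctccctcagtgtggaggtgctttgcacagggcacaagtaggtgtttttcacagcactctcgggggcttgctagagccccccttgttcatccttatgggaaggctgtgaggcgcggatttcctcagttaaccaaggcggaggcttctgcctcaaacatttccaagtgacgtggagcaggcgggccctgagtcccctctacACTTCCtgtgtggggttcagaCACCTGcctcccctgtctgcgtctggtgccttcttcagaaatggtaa
Btla: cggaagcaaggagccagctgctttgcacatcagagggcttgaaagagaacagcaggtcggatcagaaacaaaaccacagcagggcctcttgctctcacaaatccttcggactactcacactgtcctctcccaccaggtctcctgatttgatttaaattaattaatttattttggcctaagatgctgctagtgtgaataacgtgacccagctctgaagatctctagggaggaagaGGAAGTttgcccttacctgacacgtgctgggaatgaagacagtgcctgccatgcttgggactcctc

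Ets proteins and the E-box factors of the E2A family are established regulators of lymphocyte genes. The Ets core GGAAGT was present in 5 of the 6 promoters (Cd79a, Cd37, Cd3d, Cd3e and Btla), against 23.8% of 32851 mouse promoter windows. The longer CAGGAAGT, which contains that core, was present in Cd79a and Cd3e and in 3.33% of all windows. The E-box CAGGTG was present in 5 of the 6 (Cd79a, Cd37, Cd3d, Cd3e and Cd3g), against 20.2% of all windows, and CAGCTG in Cd3g and Btla, against 16.3%. The Runx motif TGTGGT was found in Btla and in 16.8% of all windows. The octamer ATGCAAAT, the exact EBF palindrome and TATAAA were in none of the 6, and in 1.74%, 0.904% and 13.6% of all windows. For EBF only the full palindrome was searched, so half-sites and diverged sites would have been missed. The missing palindrome therefore does not show that these promoters, that of Cd79a included, lack an EBF site. The motifs were searched on both strands and chosen after the sequences had been seen. A match is only a run of letters. The 3 Cd3 genes lie together on chromosome 9, where the starts of Cd3d and Cd3g are 1355 bases apart on opposite strands.

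Both knockout columns had served to pick the genes, so the difference between them is also a description. The B cell genes were higher in Lbr-knockout than in Lmna-knockout muscle, and the T cell genes lay closer together. Only Cd79b reached 2-fold (log2 difference 1.09), followed by Cd79a (0.94) and Ms4a1 (0.43). Of 12069 genes, 1.49% passed 2-fold between the knockouts, 0.679% being higher and 0.812% lower in Lbr-knockout muscle. Differences were 0.30 for Cd3g, 0.28 for Cd3e, 0.27 for Cd3d, 0.13 for Btla, -0.01 for Cd37 and -0.17 for Cd2. Summed over Cd79a, Cd79b and Ms4a1, the level was 36.9 FPKM in Lbr-knockout muscle and 17.7 FPKM in Lmna-knockout muscle. Over Cd3d, Cd3e, Cd3g and Cd2 it was 13.5 and 11.9 FPKM in the same columns. Wild-type muscle had 6.19 FPKM for the B cell genes and 4.17 FPKM for the T cell genes. The summed B cell level was thus 2.74, 1.49 and 1.48 times the T cell level in Lbr-knockout, Lmna-knockout and wild-type muscle, and 3.63, 1.89 and 3.07 times with Cd3g left out. The order of the columns in this proportion thus depended on Cd3g. The proportion without Cd2, which was grouped with the T cell genes, was not taken.

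Ptprc, which encodes the phosphatase CD45 of all nucleated blood cells, served as a common denominator, at 4.71 FPKM in Lbr-knockout, 3.90 FPKM in Lmna-knockout and 1.27 FPKM in wild-type muscle. Per Ptprc, the columns lay closest together for Btla and Ms4a1. Btla was 0.63, 0.67 and 0.59 times Ptprc, and Ms4a1 0.60, 0.47 and 0.53 times, in Lbr-knockout, Lmna-knockout and wild-type muscle. Cd79a was 3.91 times Ptprc in Lbr-knockout muscle, against 2.33 in Lmna-knockout and 2.31 in wild-type muscle. Cd79b had ratios of 3.34, 1.75 and 2.04 in the same order. Cd37 was 1.62 and 1.97 times Ptprc in Lbr-knockout and Lmna-knockout muscle, against 0.46 in wild type, in proportion the widest gap of the 9 genes. Cd3d was 0.73 and 0.68 times Ptprc in Lbr-knockout and Lmna-knockout muscle, against 0.45 in wild type, and Cd3e 0.56 and 0.50 times, against 0.40. Cd2 was 0.88 and 1.22 times, against 0.74. Cd3g went the other way, at 0.70 and 0.64 times Ptprc in Lbr-knockout and Lmna-knockout muscle, against 1.70 in wild type. These ratios show unequal change within a column only.

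**Figure D2:**
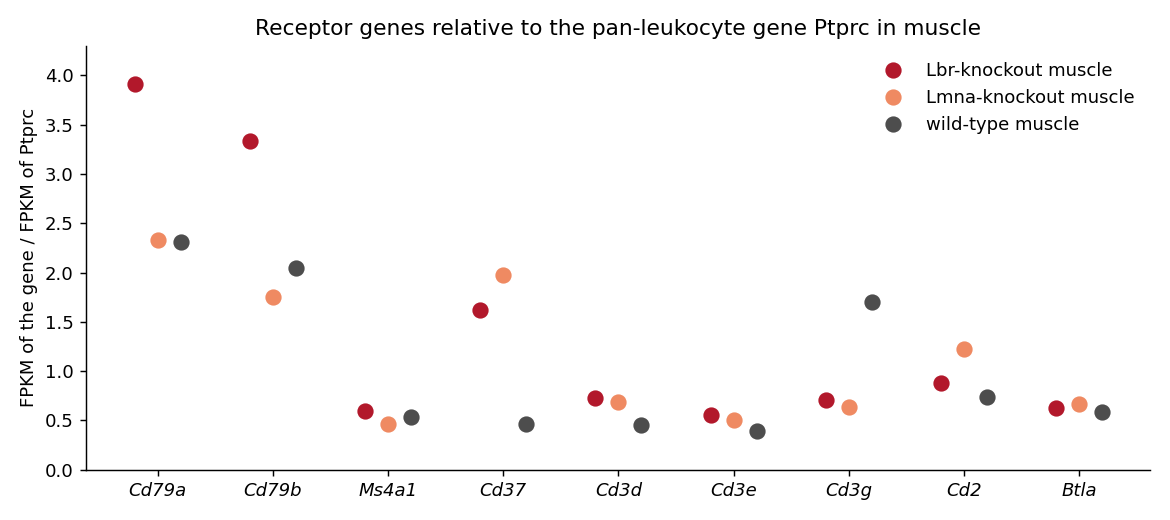
Ratio of each gene's FPKM to the FPKM of Ptprc (vertical axis) in Lbr-knockout, Lmna-knockout and wild-type muscle, 1 point per column. Cd37, Cd3d, Cd3e and Cd2 are higher in both knockouts and Cd79a and Cd79b mainly in Lbr-knockout muscle, Cd3g is higher in wild type, and Btla and Ms4a1 lie close together.

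Other genes of the 2 pathways were read from lists. Most were above wild type in both knockouts. The counts of rises in this and the following lists stand beside 1.30% of all genes in Lbr-knockout and 1.93% in Lmna-knockout muscle, and nothing particular to a list is read from them. The minimum level is a mean over the 3 muscle columns. List genes below 1 FPKM in wild type, such as Lat and Ptpn22, met it only through the knockouts. That favours rises in the counts and medians of the lists. Several lists share genes, among them Ptprc, Cd8b1, Cd28, Ptpn6, Vav1 and Cd53, so their counts are not separate from each other. Of 21 B cell receptor signalling genes in the table, 19 were compared, 3 rose in Lbr-knockout and 0 in Lmna-knockout muscle (medians 0.73 and 0.54), and none fell. The phosphatase gene Ptpn6, whose product also binds the Btla tail, rose in Lbr-knockout muscle and was at 4.29 and 2.64 FPKM in Lbr-knockout and Lmna-knockout muscle, against 1.17 FPKM in wild type (1.29 and 0.75). The adaptor gene Pik3ap1 (1.23 and 0.54) and the exchange factor gene Vav1 (1.13 and 0.91) also rose in Lbr-knockout muscle. Of 26 T cell receptor signalling genes 15 were compared, 4 rose in Lbr-knockout and 3 in Lmna-knockout muscle (medians 0.72 and 0.65), and 1 fell in Lmna-knockout muscle. The adaptor gene Lat rose in both, to 1.68 and 2.48 FPKM in Lbr-knockout and Lmna-knockout muscle, against 0.193 FPKM in wild type (1.17 and 1.54). Ptpn22, a phosphatase gene of T cell signalling, was at 1.12 and 1.09. Cd28, the costimulatory receptor gene, was the gene that fell, at 3.98 and 1.36 FPKM in Lbr-knockout and Lmna-knockout muscle and 4.21 FPKM in wild type (-0.06 and -1.14). Without the minimum level, 50.6% of 16408 genes were above wild type in both knockouts, as were 19 of 21 B cell receptor signalling and 19 of 24 T cell receptor signalling genes not listed at 0. The T cell receptor signalling medians were then 0.52 and 0.55 in Lbr-knockout and Lmna-knockout muscle, and those of B cell receptor signalling stayed at 0.73 and 0.54.

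Among 20 B cell identity genes, 14 were compared, 2 rose in Lbr-knockout and 0 in Lmna-knockout muscle (medians 0.82 and 0.47). Faim3, which encodes the Fc receptor for IgM, was at 5.40 and 2.73 FPKM in Lbr-knockout and Lmna-knockout muscle, against 0.968 FPKM in wild type (1.70 and 0.92). Fcrla (1.12 and 0.56) also rose in Lbr-knockout muscle. Of the 14, 11 were above wild type in Lbr-knockout and 13 in Lmna-knockout muscle. The kinase gene Blk was below wild type in both, at 1.20 and 0.595 FPKM, against 1.35 FPKM (-0.10 and -0.56), and Cd24a (-0.16 and 0.61) and Vpreb3 (-0.22 and 0.28) were below it in Lbr-knockout muscle. The B cell factor gene Pax5, under the minimum level, was at 0.405 and 0.851 FPKM, against 1.20 FPKM in wild type. Among 24 T cell identity genes, 11 were compared (medians 0.72 and 0.59). Of these, 2 rose in Lbr-knockout and 1 in Lmna-knockout muscle, and 1 fell in Lmna-knockout muscle. Of the 11, 9 were above wild type in Lbr-knockout and 8 in Lmna-knockout muscle. Thy1 (-0.18 and -0.78) and Cd28 (-0.06 and -1.14) were below wild type in both knockouts. Ms4a4b (0.47 and -0.07) was below it in Lmna-knockout muscle only. The T cell factor gene Tcf7 rose in both, to 5.51 and 5.39 FPKM, against 1.58 FPKM in wild type (1.33 and 1.31), and Cd8b1, a chain of the CD8 co-receptor, was at 1.30 and 0.87. The gene for the zeta chain, Cd247, was at 4.32 and 3.60 FPKM in Lbr-knockout and Lmna-knockout muscle, against 2.06 FPKM in wild type (0.80 and 0.59). Unlike the Cd3 genes, it was at 1.96 FPKM or more in all 4 myoblast columns.

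Of 13 homing receptor genes 9 were compared, 3 rose in Lbr-knockout and 1 in Lmna-knockout muscle (medians 0.90 and 0.65). Ccr7, the receptor that guides lymphocytes into lymph nodes, was at 3.83 and 2.26 FPKM in Lbr-knockout and Lmna-knockout muscle, against 0.981 FPKM in wild type (1.29 and 0.72). Selplg, the P-selectin ligand gene, rose in both (1.19 and 1.14). Of 17 partners of Btla, Cd2 and Cd37, 14 were compared and 2 rose in Lbr-knockout and 1 in Lmna-knockout muscle (medians 0.26 and 0.26). Tnfrsf14, the Btla ligand gene, was at 1.31 and 1.18 FPKM in Lbr-knockout and Lmna-knockout muscle, against 0.554 FPKM in wild type (0.57 and 0.49), and the Cd2 ligand gene Cd48 at 0.19 and 0.06. Among leukocyte tetraspanin genes were Cd53 (1.06 and 0.33) and Tspan32 (0.75 and 1.07). Of 14 other Ms4a genes 6 were compared, with none past 2-fold and medians of -0.00 and -0.02. Ms4a6b came nearest to Ms4a1, at 3.45 and 2.52 FPKM in Lbr-knockout and Lmna-knockout muscle, against 1.36 FPKM in wild type (0.91 and 0.57).

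Markers of other cells that could accompany lymphocytes moved with these genes to different degrees. Of 13 lymph node stroma and high endothelium genes 8 were compared, 5 rose in Lbr-knockout and 4 in Lmna-knockout muscle (medians 1.17 and 0.95), and none was listed at 0. Of the 8, 7 were above wild type in each knockout. Fcna was below it in both, at 2.35 and 2.18 FPKM, against 3.36 FPKM (-0.38 and -0.45). Under the minimum level, Coch (-0.32 and -0.01) and Tnfsf11 (-0.02 and -0.13) were also below wild type in both. Over the 13 genes the summed level was 147 and 118 FPKM in Lbr-knockout and Lmna-knockout muscle, against 49.0 FPKM in wild type. The chemokine gene Ccl19 was at 21.7 and 11.2 FPKM, against 1.70 FPKM in wild type, and Cxcl13, which attracts B cells, at 3.46 and 1.00 FPKM, against 0.164 FPKM. Glycam1, made by high endothelial venules, was at 54.2 and 53.2 FPKM, against 21.3 FPKM in wild type. The row that joins Ccl21a and Gm1987 had the largest difference (4.75 and 4.18), but these loci have near-identical copies and the value is uncertain. That row makes up 26.1 and 17.2 FPKM of the summed levels in Lbr-knockout and Lmna-knockout muscle, and it is among the counted rises. The lymphotoxin gene Ltb, also counted in this list, rose in both (1.03 and 1.11). Lymphocytes themselves express Ltb, and the cells behind its rise, or behind that of the other genes in this list, were not tested. Of 15 pan-leukocyte genes 14 were compared, 9 rose in Lbr-knockout and 5 in Lmna-knockout muscle (medians 1.06 and 0.90), with summed levels of 126, 99.3 and 44.8 FPKM in Lbr-knockout, Lmna-knockout and wild-type muscle. The cytoskeletal regulator genes Coro1a (1.76 and 1.45) and Rac2 (1.71 and 1.45) and the surface antigen gene Cd52 (1.87 and 1.42) were among them. The part of lymph node tissue in the rise of the 9 genes was not tested.

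Macrophage genes differed less: 10 of 14 were compared, 0 passed 2-fold in either knockout, and the medians were 0.46 and 0.33. Of 10 dendritic cell genes 5 were compared, and only the chemokine gene Ccl22 rose, in both (2.01 and 1.26). Of 9 neutrophil genes 8 were compared, and 3 rose in Lbr-knockout and 4 in Lmna-knockout muscle (medians 0.50 and 1.32). The calgranulin genes S100a8 (1.62 and 1.80) and S100a9 (1.52 and 1.83) and Retnlg (1.52 and 2.21) rose in both, and the granule gene Ngp in Lmna-knockout muscle (0.79 and 1.68). The granule gene Camp went in opposite directions, at 5.44 and 23.7 FPKM in Lbr-knockout and Lmna-knockout muscle, against 11.7 FPKM in wild type (-0.99 and 0.96), and its Lbr-knockout difference passed 2-fold with median centring. Among 10 natural killer and cytotoxic genes only Ccl5 met the minimum level, and it rose in both (2.31 and 1.92). Of 4 plasma cell genes compared, only 2010001M09Rik rose, in Lmna-knockout muscle (1.13), and of 3 germinal centre genes only Fas, there too (1.48). Neither of the 2 compared genes of immature lymphocytes, Vpreb3 and Cd1d1, reached 2-fold. Red cell genes had medians of -0.00 and -0.08 over 7 genes, and lymphatic endothelium 0.08 and -0.01 over 6. Adipocyte genes had a median of 0.63 in Lbr-knockout and -0.19 in Lmna-knockout muscle, with 2 rises in Lbr-knockout muscle (Cfd at 1.69 and Retn at 1.22) and 1 fall in Lmna-knockout muscle (Lep at -1.21). Muscle fibre genes had medians of -0.04 and -0.35 over 10 genes, and myoblast genes 0.16 and 0.04 over 8, with none past 2-fold.

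**Figure D3:**
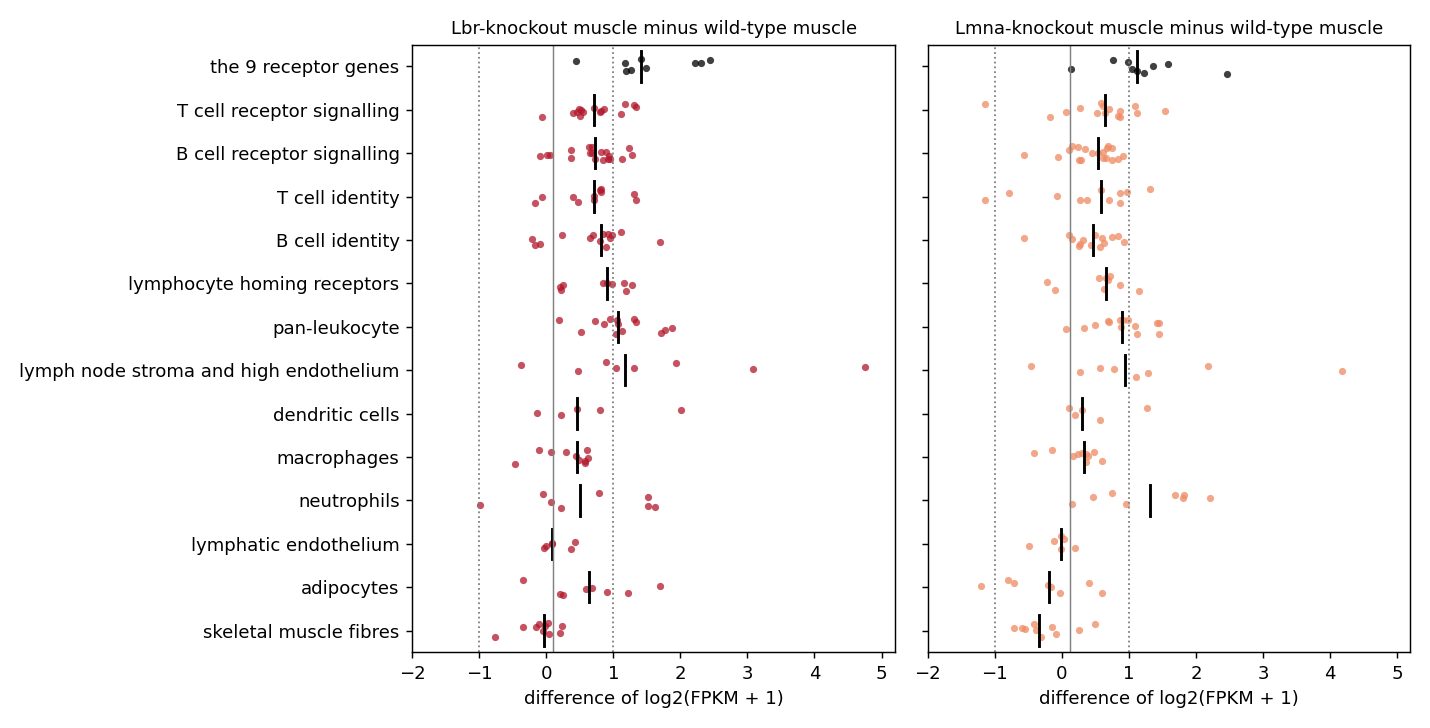
Differences of log2(FPKM + 1) between each knockout muscle and wild-type muscle (horizontal axis), 1 point per compared gene, for the 9 receptor genes (black) and 13 lists. Black bars are list medians, the solid grey line is the median of all genes (0.10 and 0.13) and dotted lines mark 2-fold. Both panels share the wild-type column.

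Over all 7 columns, the 6 genes with the profile most like the mean of the 9 were Ly6d, Lck, S1pr4, Tbc1d10c, Ccl19 and Cd209b, out of 11119 ranked by Pearson's r of log2(FPKM + 1). The coefficients ran from 0.999 for Ly6d to 0.997 for Cd209b, over 7 columns that fall into muscle and myoblasts, so they mainly record the tissue and are a description. Ly6d, a surface antigen gene of the B lineage, was at 4.99 and 3.75 FPKM in Lbr-knockout and Lmna-knockout muscle, against 1.16 FPKM in wild type, and listed at 0 in the 4 myoblast columns. Lck, the kinase that phosphorylates the Cd3 tails, was at 1.85 and 1.64 FPKM, against 0.619 FPKM. Tbc1d10c, a leukocyte GTPase regulator gene, was at 5.03 and 4.24 FPKM, against 1.08 FPKM.

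In myoblasts the genes other than Cd37 were almost silent. Without Cd37, 16 of 32 values were listed at 0 and the highest was 0.195 FPKM, for Cd79a in Lbr-knockout myoblasts. Cd2 and Cd3g were listed at 0 in all 4 columns. Cd37 was the only one of the 9 to meet the minimum mean of 1 FPKM over the myoblast columns. In all 4 of them it was above the 0.584 FPKM of wild-type muscle. Cd37 was at 1.14 FPKM in Lbr-knockout myoblasts, against 0.866 FPKM in the Lbr-litter wild type, and at 1.45 FPKM in Lmna-knockout myoblasts, against 2.23 FPKM in the Lmna-litter wild type. With the wild-type myoblasts exchanged between litters both directions turned, to -0.60 and 0.40. The log2 differences of 0.20 and -0.40 from the own litter did not reach 2-fold, which 2.60% and 1.20% of genes passed in the Lbr and Lmna comparisons. In the Lbr comparison 2.48% were higher and 0.122% lower, and in the Lmna comparison 0.602% in each direction. The cultures expressed macrophage genes, with a summed level over 14 genes of 1249 FPKM in Lbr-knockout myoblasts, against 397 FPKM in the Lbr-litter wild type, and 1202 FPKM in Lmna-knockout myoblasts, against 1452 FPKM in the Lmna-litter wild type. Cd37 had the same order within each litter, and the part of macrophages in it was not tested.

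**Figure D4:**
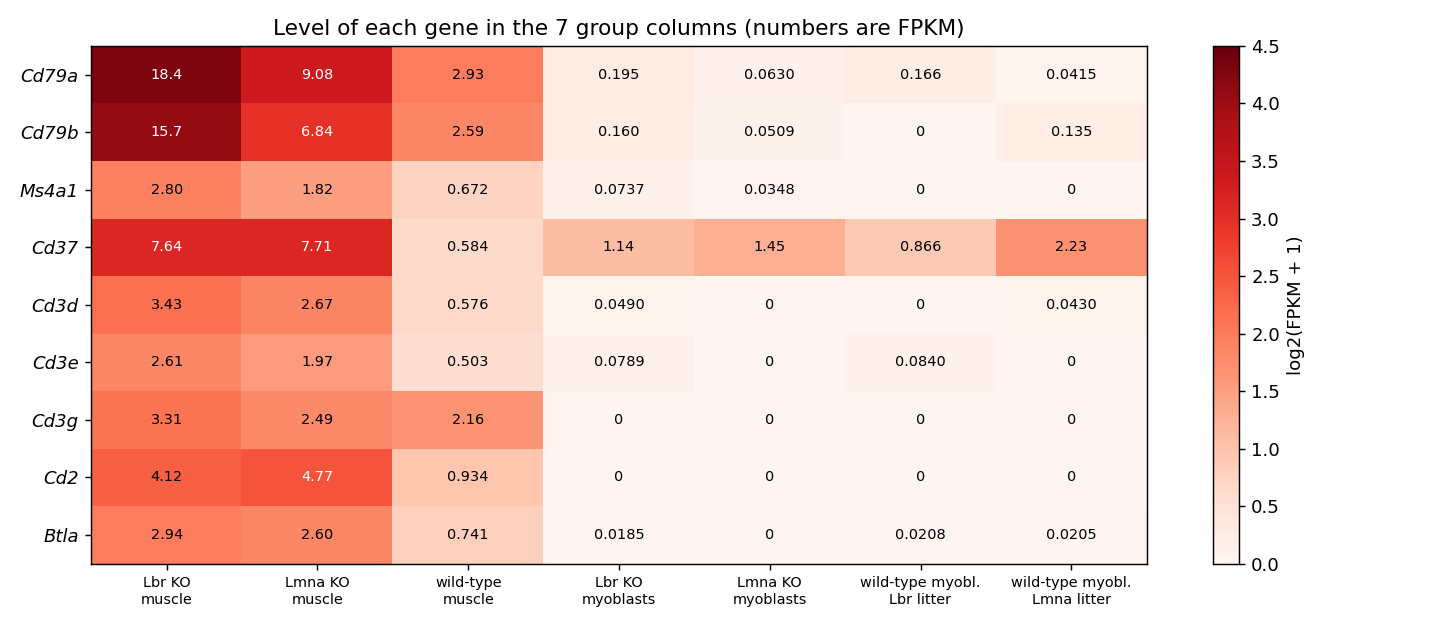
Level of the 9 genes in the 7 group columns. Colour is log2(FPKM + 1) and the printed numbers are FPKM, 1 deposited value per group. All 9 genes are above 1 FPKM in both knockout muscles, and only Cd37 exceeds 0.195 FPKM in myoblasts.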

How the data were processed

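Total RNA was isolated with TRIZOL, cleaned with an RNeasy kit and sequenced, per the labels' protocols. A pair of NuGEN kits is named there by sample number, and which group had which kit was not worked out. The deposited values are FPKM calculated by the authors, 1 per gene and group, so 5 of the 7 columns stand for 2 samples and 2 for 1. Per the submitters' processing notes, the build was mm9. The aligner, the quantifier and the way samples were joined were not given in the sources used here. With 0 value columns unmatched, columns were assigned to groups by name.

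Differences were taken on log2(FPKM + 1) over genes whose columns for the tissue averaged 1 FPKM or more, with no compared column at 0. A difference of 2-fold stands in for a threshold; no test was made, since each group has a single value. The planned omission of replicates and replicate blocks could not be run. The calculation was tested on simulated data. The 9 genes and the 21 lists were chosen with earlier results of these data known; 4 of 246 list symbols were not matched. Up to 4 genes per list and comparison were named by size of difference, and 6 genes by likeness; some of these are not reported here. Beyond that rule, Cd247, Cd48, Ckm, Blk, Cd24a, Thy1, Pax5 and Myf5 were chosen after their values were seen. Fragments were estimated from 4179 single-transcript genes of GENCODE M21 and the longest coding transcript of each gene, which is of another build and was used for lengths and overlaps only. Alternatives were pseudocounts of 0.1 and 5, no filter, a filter of 5 FPKM, median centring, quantile normalization, other wild-type myoblasts and plain ratios. Analysis used Python 3.11.15 with pandas 2.3.3 and NumPy 2.4.6.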

Additional observations from a re-analysis of the deposited data

Results flagged for a closer look

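Cd37 moved in opposite directions in the tissues of the Lmna knockout. Lmna-knockout muscle had 7.71 FPKM, against 0.584 FPKM in wild-type muscle (log2 difference 2.46). Lmna-knockout myoblasts had 1.45 FPKM, against 2.23 FPKM in their litter's wild type (-0.40). The muscle difference exceeded the myoblast difference by 2.86 on the log2 scale. With a single column per group this difference was not tested, and against the wild-type myoblasts of the other litter the myoblast difference was 0.40, the same direction as in muscle.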

How the results depend on the processing

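Differences of the 9 genes past 2-fold kept their direction under the alternatives run, but smaller ones did not all do so. Cd3g in Lmna-knockout muscle was at 0.14 and, with quantile normalization, at -0.03. Cd37 between the knockouts was at -0.01, and at 0.01 with median centring and 0.02 with quantile normalization. Cd37 in Lbr-knockout myoblasts was at 0.20, but at -0.60 with the Lmna-litter wild type and -0.25 with the mean of both wild types; in Lmna-knockout myoblasts it was at -0.40, and at 0.40 with the Lbr-litter wild type. The number past 2-fold depended on the pseudocount. In Lbr-knockout muscle 8 of 9 genes passed; with a pseudocount of 5 there were 3, and with a filter of 5 FPKM, which leaves 3 genes, all 3. In Lmna-knockout muscle 6 passed; with a pseudocount of 5 there was 1, and with a filter of 5 FPKM again 3 of 3. Median centring or quantile normalization left 4, without Cd79b and Btla, and a pseudocount of 0.1 or plain ratios gave 8. Between the knockouts 1 passed; a pseudocount of 0.1 or a plain ratio of FPKM, an alternative added after the data were seen, gave 2, and a pseudocount of 5 gave 0.

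Over all genes, 189 passed 2-fold in Lbr-knockout muscle, against 457 with a pseudocount of 0.1, 48 with 5 and 67 with a filter of 5 FPKM. The counts for Lmna-knockout muscle were 325, 725, 98 and 187, and between the knockouts 180, 404, 56 and 109, in the same order of settings. Genes higher than wild type made up 83.1% of those past 2-fold in Lbr-knockout muscle and 71.7% in Lmna-knockout muscle; after median centring the shares were 73.8% and 56.8%, and after quantile normalization 72.1% and 56.1%. The larger pseudocount compresses low values and the stricter filter tests fewer genes; the cause of the other shifts was not tested. No paired analysis was possible because the table gives a single value per group, and for the same reason no replicate could be left out. In wild-type muscle the 9 genes rest on an estimated 3 to 18 fragments, which limits every ratio to it.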
